A study of Mus musculus with 6 samples.

Results

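The platelet-derived growth factor (PDGF) family comprises 6 of the 56980 genes listed in the count tables: the ligand genes Pdgfa, Pdgfb, Pdgfc and Pdgfd and the receptor genes Pdgfra and Pdgfrb, taken by their symbols. They were followed in single-nucleus RNA sequencing (snRNA-seq) of mouse white adipose tissue, which counts unique molecular identifiers (UMIs), each standing for 1 captured RNA molecule, per gene and nucleus. The 6 libraries came from wild-type female C57BL/6J mice and fell into 3 groups of 2: subcutaneous adipose tissue (SAT, the inguinal pad) at 2 months, SAT at 24 months, and visceral adipose tissue (VAT, the gonadal pad) at 24 months. By the study's text, both depots came from 2 mice of each age, and it describes no transgene or treatment for any group. The older age is 24 months by the labels, while the text of the study puts it at 26. VAT at 2 months was not analysed here, so age could be compared in SAT and depot at 24 months. Although every library is labelled as adipocytes, its nuclei carried markers of many classes.

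PDGFs are secreted growth factors that act as dimers on 2 receptor tyrosine kinases. PDGF-A and PDGF-C act mainly through the receptor encoded by Pdgfra, PDGF-B through both receptors and PDGF-D mainly through the one encoded by Pdgfrb, and PDGF-C and PDGF-D have to be cleaved by proteases outside the cell before they can bind. In adipose tissue Pdgfra marks the fibro-adipogenic progenitors (FAPs) from which adipocytes arise, Pdgfrb marks pericytes and other mural cells as well as part of the progenitors, and endothelial Pdgfb is known for recruiting pericytes to vessels. Signals between adipocytes and FAPs, among them Pdgfc and Pdgfra, were 1 of the questions of the study.

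The study aligned its reads to GRCm39, and positions are those of the GENCODE M39 annotation of that build. Pdgfa (ENSMUSG00000025856) lies on chromosome 5 from 138961758 to 138983435 on the minus strand and Pdgfb (ENSMUSG00000000489) on chromosome 15 from 79880009 to 79899181, also on the minus strand. Pdgfc (ENSMUSG00000028019) runs from 80943668 to 81121473 on chromosome 3 and Pdgfd (ENSMUSG00000032006) from 6168240 to 6379265 on chromosome 9, both on the plus strand. Pdgfra (ENSMUSG00000029231) occupies chromosome 5 from 75311994 to 75358876 on the plus strand, and Pdgfrb has no overlapping gene. The canonical transcripts of Pdgfc and Pdgfd have 6 and 7 exons within 177.8 and 211.0 kb, so that both genes are mostly intronic, against 19.2 to 46.9 kb for the other 4 members. Counts of different members are therefore not compared with each other below. Whether counting used the strand is not given in the sources used here. On the opposite strand, 6330403L08Rik (330 UMIs in all nuclei, against 2370 of Pdgfa) and Gm41361 (414 against 1521 of Pdgfb) overlap members, whereas the overlapping genes with counts at Pdgfc, Pdgfd and Pdgfra had at most 32 UMIs.

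The members whose counts rose with age in adipocytes were Pdgfc and Pdgfd, so the 250 bases before their first annotated start in GENCODE M39 are shown, read from GRCm39 on the plus strand, for Pdgfc at chr3:80943418-80943667 and for Pdgfd at chr9:6167990-6168239. Capitals mark the letters of a searched motif.
Pdgfc: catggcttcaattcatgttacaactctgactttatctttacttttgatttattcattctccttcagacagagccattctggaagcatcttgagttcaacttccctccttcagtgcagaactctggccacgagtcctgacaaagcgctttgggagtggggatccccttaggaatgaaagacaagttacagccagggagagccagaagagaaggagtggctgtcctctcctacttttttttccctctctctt
Pdgfd: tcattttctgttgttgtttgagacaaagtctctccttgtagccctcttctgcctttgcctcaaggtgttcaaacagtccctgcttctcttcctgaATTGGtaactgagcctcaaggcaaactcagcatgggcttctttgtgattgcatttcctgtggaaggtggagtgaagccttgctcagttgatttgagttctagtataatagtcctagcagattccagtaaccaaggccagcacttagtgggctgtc
Both windows were searched on both strands for 4 short motifs, whose matches in these windows do not overlap, and shares are of the 21770 windows of the same length before protein-coding genes. The TATA box, TATAAA, was in 12.49% of all windows and in neither of these. The CAAT box, spelled CCAAT, was in 36.14% of all windows and once in that of Pdgfd, on the minus strand and hence printed as ATTGG. A GC box, GGGCGG, was in 29.93% and an AP-1 site, TGAGTCA, in 4.143% of all windows, and in neither of these. The Pdgfc window contains 45.6% GC, and the antisense lncRNA gene Gm16000 is annotated across it. The Pdgfd window contains 46.0% GC and no other annotated gene. A match describes these letters only.

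Of 50859 barcodes, 27074 nuclei were kept, 2490 to 5776 per library, with 5262801 to 11480055 UMIs and a median of 1380 to 1878 UMIs per nucleus. The nuclei were clustered without the members and classes were named from fixed marker lists, so names such as adipocyte or FAP mean adipocyte-like or FAP-like. Between 8.24% and 18.7% of the nuclei of a library stayed unnamed. The second VAT library stood apart: markers of ovary or oviduct summed to 2801 CPM (UMIs of a gene per 1e6 UMIs), against 29.2 to 45.3 CPM in the other 5, and it gave only 139 adipocytes. Markers of lymph node stroma summed to 411 and 430 CPM in SAT at 2 months and to 44.4 to 164 CPM elsewhere. Libraries shared at most 0.769% of their barcodes. Levels below are CPM of the UMIs summed over a class in 1 library, given for replicate 1 and then replicate 2 of a group, and a library with under 20 nuclei of a class was left out of means and tests. For the comparisons of FAP and endothelial subtypes the limit was 10 nuclei.

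Pdgfa encodes the A chain. It was sparse in SAT and had its highest mean level in mesothelial nuclei, the lining cells that were found only in the VAT libraries, at 31.1 CPM (12 UMIs in 205 nuclei) and 297 CPM (1137 UMIs in 1612 nuclei). The 2 VAT libraries thus differed far from each other within the class. In adipocytes Pdgfa had 9.41 and 15.6 CPM in SAT at 2 months, 9.88 and 13.3 CPM in SAT at 24 months and 6.86 and 17.6 CPM in VAT, and these 3 pairs overlapped. Mural nuclei of the second SAT library at 24 months, with 82 nuclei the only mural sum of 20 nuclei or more, held 153 CPM on 31 UMIs. In FAPs the level was 0 and 17.2 CPM in SAT at 2 months, 0 and 3.10 CPM in SAT at 24 months, and 6.33 and 96.6 CPM in VAT, where counts of 0 allow up to 8.82 and 35.4 CPM. The high second VAT library also held mesothelial markers at 1956 CPM and ovarian markers at 988 CPM in its FAPs, against 0 to 478 and 30.6 to 59.0 CPM in FAPs of the other libraries. Their part in the Pdgfa level was not tested.

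Pdgfb encodes the B chain. Its level in endothelial nuclei was 362 and 71.2 CPM in SAT at 2 months, 317 and 295 CPM in SAT at 24 months, and 158 and 70.1 CPM in VAT. The lowest endothelial values rest on 4 and 22 UMIs. The mural sum of 82 nuclei, in the second SAT library at 24 months, held 222 CPM on 45 UMIs, and of the classes with 20 nuclei in more than 1 library endothelial nuclei had the highest mean. Adipocytes held between 0.760 and 4.25 CPM of Pdgfb in the 6 libraries, a level at which the gene did not pass the filter on low counts for a test. Macrophages, which are also known to release PDGF-B, carried 85.2 and 82.2 CPM, 40.5 and 84.3 CPM, and 24.4 and 122 CPM in the same order of groups. Natural killer nuclei held 64.6 to 135 CPM on 3 to 19 UMIs in the 4 libraries with at least 20 of them. Pdgfb was thus counted in both vessel and immune nuclei. The immune class gave from 11.4% of a library's Pdgfb UMIs (second SAT library at 24 months) to 63.0% (second SAT library at 2 months).

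Pdgfc encodes a ligand that is secreted inactive. In SAT its highest level was in epithelial nuclei, at 296 and 260.4 CPM at 2 months and 273 and 321 CPM at 24 months, so that ages overlapped. These nuclei gave 31.3% to 56.7% of all Pdgfc UMIs of the SAT libraries. Macrophages held 124 and 159.7 CPM in SAT at 2 months, 253 and 221 CPM in SAT at 24 months and 327 and 145 CPM in VAT. Both older SAT libraries exceeded both younger ones, whereas the VAT libraries lay on either side of them. Mesothelial nuclei of VAT held 127 and 109 CPM. Endothelial nuclei held 0 to 70.1 CPM, where the count of 0 allows up to 37.5 CPM, and FAPs 26.5 to 82.6 CPM, both without separation of the groups. In VAT the main source differed by library: adipocytes gave 74.3% of the Pdgfc UMIs of the first, and mesothelial nuclei 51.4% of the second.

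Pdgfd encodes the second ligand that needs cleavage. Mesothelial nuclei of the VAT libraries had 1082 and 611 CPM, the highest mean of any class, and 40.8% of the 1817 mesothelial nuclei held at least 1 UMI after each nucleus was thinned to 1000 UMIs. Endothelial nuclei held 237 and 71.2 CPM in SAT at 2 months, 773 and 433 CPM in SAT at 24 months and 547 and 236 CPM in VAT. FAPs held 353 and 232 CPM, 189 and 127 CPM, and 288 and 408 CPM in the same groups. In FAPs the older SAT libraries thus lay below the younger ones, and in endothelial nuclei above them. Immune nuclei held 4.10 to 25.6 CPM, and macrophages 0 to 23.6 CPM, where the count of 0 allows up to 10.7 CPM. Within the second VAT library Pdgfd was also at 643 CPM in epithelial, 678 CPM in skeletal muscle and 585 CPM in lymph node stroma nuclei, classes that held 9.25 to 44.2 CPM, 64.4 CPM and 22.4 to 173 CPM in SAT. Mesothelial markers summed in that library to 2731 CPM in epithelial and 526 CPM in lymph node stroma nuclei, against at most 21.4 and 7.46 CPM in SAT, and their part in these levels was not tested.

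**Figure D1:**
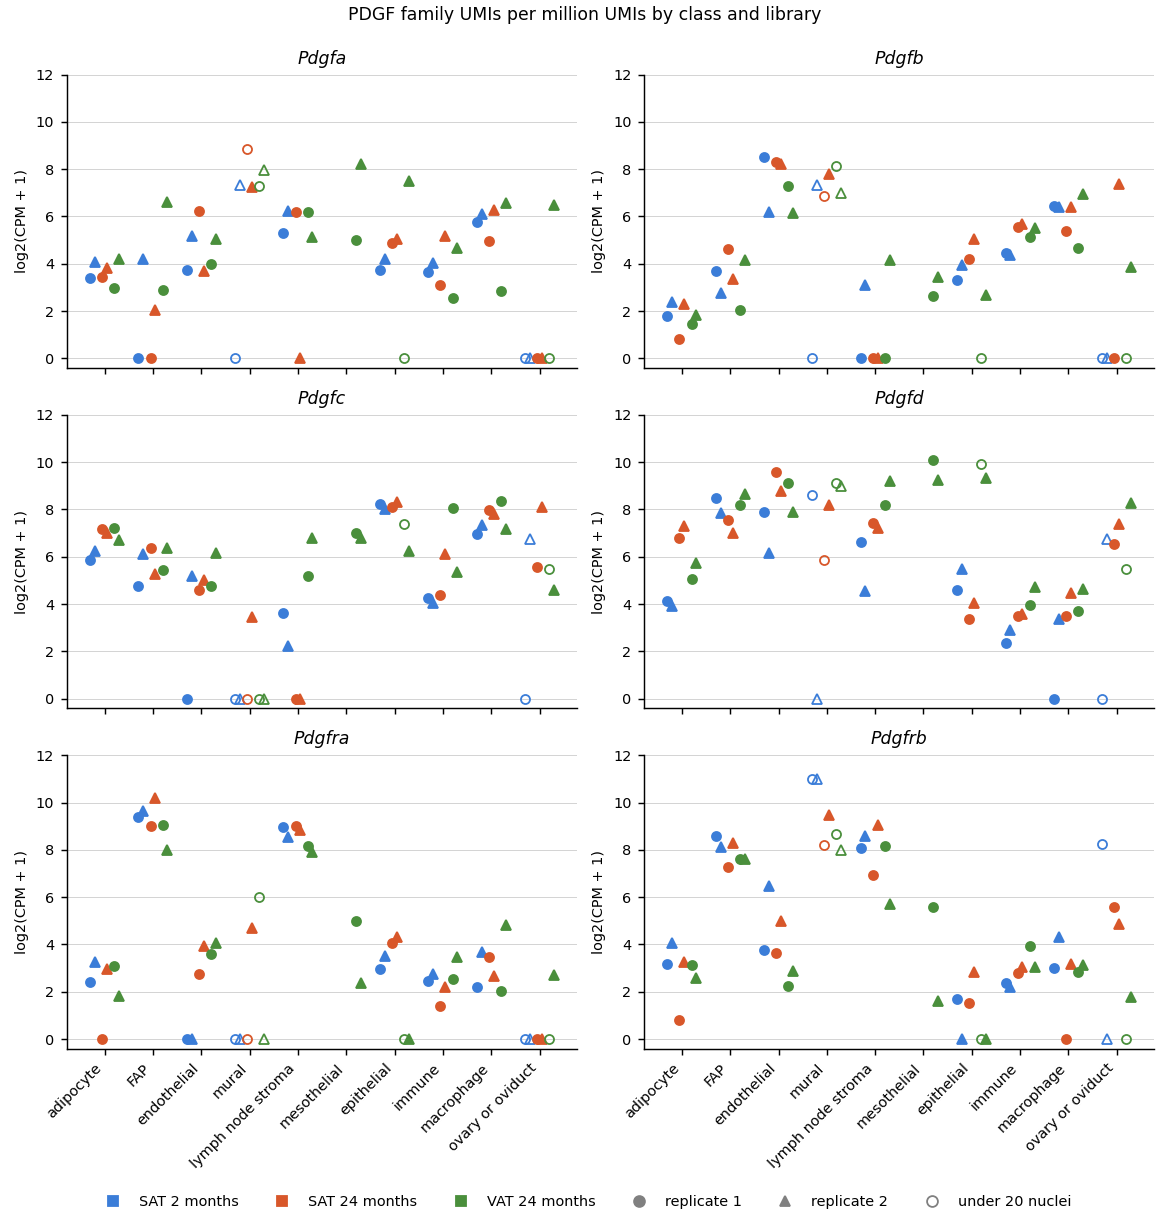
Level of each PDGF member in the named classes, as log2(CPM + 1) on the vertical axis, with 1 point per library coloured by group and hollow points for sums of under 20 nuclei. Pdgfra points are high in FAPs and lymph node stroma (238 to 1153 CPM) and near the base line in adipocytes (0 to 8.51 CPM), while Pdgfd points are spread over mesothelial, endothelial and FAP nuclei.

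Pdgfra, the receptor gene that marks FAPs, had a level in them of 676 and 809.6 CPM in SAT at 2 months, 507 and 1153 CPM in SAT at 24 months and 523 and 254 CPM in VAT. The SAT ages overlapped. Lymph node stroma had 501 and 369 CPM, 508 and 463 CPM, and 288 and 238 CPM, lower than FAPs in 5 of 6 libraries. In the 2 VAT libraries the data go against this class name, with its own markers at only 288 and 619 CPM and FAP markers at 9352 and 2443 CPM. Adipocytes held 0 to 8.51 CPM, and the count of 0, in the first SAT library at 24 months, allows up to 2.28 CPM. After thinning to 1000 UMIs, 36.9% ± 13.1 (SD, n = 6) of FAPs had a Pdgfra UMI, against 0.629% of the 6358 adipocytes, which were sequenced to a median of 1628 to 2407 UMIs per nucleus in a library and FAPs to 1299 to 1570. Adipocytes are given here as a class that should hold little of the gene, and the source of their few UMIs was not tested. FAPs gave between 32.6% and 78.7% of all Pdgfra UMIs of a library.

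Pdgfrb (ENSMUSG00000024620, plus strand of chromosome 18 from 61178212 to 61218133), the receptor gene of mural cells, was at 699.5 CPM (142 UMIs) in the mural sum of the second SAT library at 24 months. The other 5 libraries had only 5 to 18 mural nuclei each and 4 to 16 Pdgfrb UMIs in them, at 252 to 2068 CPM, so no comparison between groups was made. These mural sums also held adipocyte markers at up to 5143 CPM and endothelial markers at up to 5558 CPM, and the part of such nuclei in the mural levels was not tested. FAPs held 388 and 275 CPM in SAT at 2 months, 153 and 316 CPM in SAT at 24 months and 196 and 196 CPM in VAT. Lymph node stroma held 269.5 and 388 CPM, 122 and 527 CPM, and 288 and 50.9 CPM, and neither class separated the groups. Adipocytes held 0.760 to 15.6 CPM. The share of FAPs with a UMI was 20.2% ± 5.4 (SD, n = 6) after thinning, against 0.786% of adipocytes.

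The classes were also ordered by mean level within each member, leaving out mural nuclei, which only 1 library held in a sum of 20 or more. None of the 42 differences between neighbours in the order passed an exact two-sided permutation test of sign flips within libraries after Benjamini-Hochberg adjustment, with a smallest adjusted p = 0.525. With 6 libraries the exact test cannot go below p = 0.03125, and with fewer its smallest p is higher, so that no comparison could have passed after adjustment over 42 and the test says nothing about whether neighbours differ. The largest gap between neighbours measured in 6 libraries was that of Pdgfrb, with FAPs above endothelial nuclei in 6 of 6 libraries, by a mean of 3.92 in log2(CPM + 1) (exact permutation p = 0.03125, adjusted p = 0.525). Pdgfd was higher in adipocytes than in immune nuclei in 6 of 6 libraries by 2.00 in log2(CPM + 1), with the same exact permutation p and adjusted p. FAPs and lymph node stroma differed in Pdgfra by 0.64 ± 0.55 (SD, n = 6, exact permutation p = 0.0625), with the 2 VAT sums of doubtful stroma included.

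Adipocyte sums were next compared across age. Pdgfd, with 16.3 and 14.2 CPM in the younger SAT libraries, reached 111 and 159 CPM in the older ones, on 26, 10, 146 and 823 UMIs. Both older libraries lay far above both younger ones, with no overlap. The log2 fold change was 3.27 ± 0.34 (SE, edgeR quasi-likelihood test, adjusted p = 4.03e-05). Pdgfc had 57.7 and 75.2 CPM at 2 months and 144 and 129 CPM at 24 months, again with no overlap. It rose by 1.21 ± 0.28 in log2 (edgeR, adjusted p = 0.00998), and it was no longer past the threshold when either SAT library at 2 months was left out (1.06, adjusted p = 0.147 without the first and 1.39, adjusted p = 0.0611 without the second). Thus 2 of the 5 members tested passed, both ligands and both upward, beside 14.3% of the 12559 genes tested in adipocytes, 840 upward and 959 downward. With library size alone as scaling the median over all these genes moved from 0.003 to −0.159 in log2. The other tested members did not pass: Pdgfa (log2 fold change 0.13, adjusted p = 0.91) in the values above, Pdgfra (0 to 8.51 CPM) and Pdgfrb (0.760 to 15.6 CPM). In adipocytes of the same libraries, immune markers summed to 352 and 696 CPM at 2 months and 116 and 77.5 CPM at 24 months, FAP markers to 646 and 509 and then to 300 and 832 CPM, and endothelial markers to 81.5 and 142 and then to 44.8 and 72.5 CPM. The part of these other nuclei or their RNA in the ligand levels was not tested. The median mitochondrial share of UMIs over all nuclei of a library was 1.72% and 0.918% in SAT at 2 months and 3.49% and 2.91% at 24 months, and the Pdgfd call held with nuclei under 5% only.

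**Figure D2:**
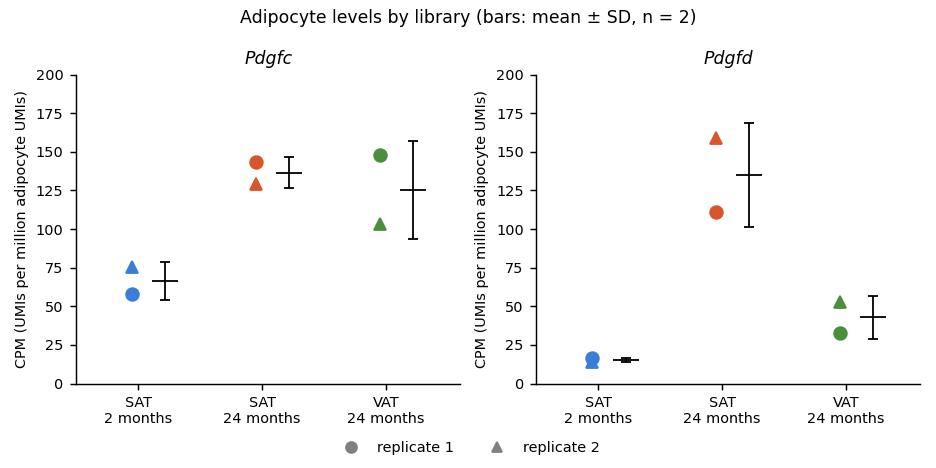
Level of Pdgfc and Pdgfd in adipocyte sums, as CPM, with 1 point per library, the mean and SD as bars (n = 2) and the groups SAT 2 months, SAT 24 months and VAT 24 months on the horizontal axis. Pdgfd sits at 14.2 and 16.3 CPM in the younger SAT libraries, at 111 and 159 CPM in the older ones and at 32.8 and 52.8 CPM in VAT.

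The same difference showed in the share of adipocytes with a UMI after thinning to 1000 UMIs per nucleus, which left out no nucleus. Pdgfd was found in 1.37% ± 0.15 of adipocytes of SAT at 2 months and 10.2% ± 2.1 at 24 months, and in 3.63% ± 0.97 in VAT (SD, n = 2 each). Without thinning these shares were 2.28%, 19.0% and 9.15%. Pdgfc was found in 6.54% ± 1.5, 11.1% ± 0.2 and 9.20% ± 2.8 after thinning (SD, n = 2 each), and in 10.6%, 20.8% and 22.3% without. For both ligands the share at 24 months in SAT lay above that at 2 months. Adipocytes gave 8.31% and 4.65% of all Pdgfd UMIs in SAT at 2 months and 36.9% and 51.8% at 24 months, whereas the share from FAPs went from 38.3% and 37.7% to 4.04% and 2.58%. These shares of UMIs also follow the numbers of nuclei, which were 745 and 396 adipocytes and 186 and 177 FAPs at 2 months, and 596 and 1931 adipocytes and 58 and 211 FAPs at 24 months.

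Adipocyte nuclei formed 11 clusters that kept the name, of which cluster 1 (942 nuclei) and cluster 2 (937) each had 1 marker of another class, an immune and a skeletal muscle one, and none of their own among their leading genes. Of the 11, 8 held at least 20 nuclei of each SAT age after libraries were pooled, cluster 1 but not cluster 2 among them. Pdgfd ranged from 5.37 to 35.5 CPM over these clusters at 2 months and from 72.6 to 242 CPM at 24 months, and Pdgfc from 49.6 to 97.5 and from 76.2 to 218 CPM. Both ligands were higher at 24 months in 8 of 8 clusters. In the 5 clusters with at least 20 nuclei in every SAT library, the ages did not overlap in 5 for Pdgfd and in 3 for Pdgfc. The clusters come from the same nuclei and are a description without a test. In VAT, Pdgfd ran from 12.5 to 56.9 CPM in 10 of the 11 clusters and was at 301 CPM, on 59 UMIs, in cluster 11, which was singled out after its values were seen and had 242 CPM in SAT at 24 months. Its VAT nuclei were 87 from the first library and 3 from the second, and its SAT nuclei at 24 months were 15 and 47. Ppara, Cidea and Ucp1 were among the leading genes of this cluster.

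**Figure D3:**
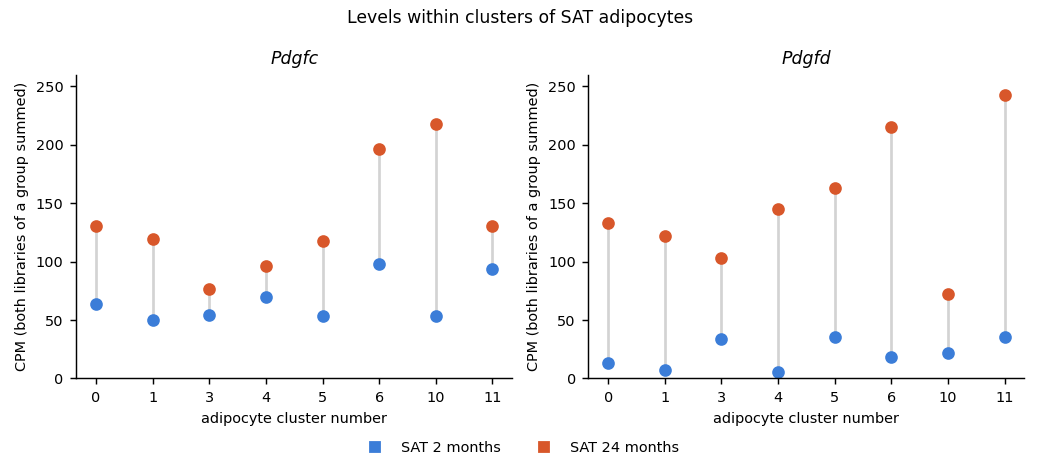
Pooled level of Pdgfc and Pdgfd in CPM in each of the 8 adipocyte clusters with at least 20 nuclei of both SAT ages, with points for 2 and for 24 months. The 24-month point is the higher in 8 of 8 clusters for both ligands, and the Pdgfd ranges of the ages (5.37 to 35.5 and 72.6 to 242 CPM) do not overlap.

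Between depots at 24 months, with libraries that may share mice, adipocyte Pdgfd had 111 and 159 CPM in the SAT libraries and only 32.8 and 52.8 CPM in those of VAT. Both VAT libraries lay below both SAT libraries, and the gene was lower in VAT by a log2 fold change of −1.77 ± 0.30 (SE, edgeR, adjusted p = 0.0266). It was the single member called of 5 tested, where 0.167% of 12559 genes were called. The call was lost without the first VAT library (−1.37, adjusted p = 0.319), which leaves only the second with its 139 adipocytes and 21 Pdgfd UMIs, and with only the 4 libraries compared (adjusted p = 0.08). In these adipocytes mesothelial markers summed to 6.84 and 4.63 CPM in the SAT libraries and 44.6 and 123 CPM in those of VAT, and ovarian markers to 23.6 and 24.7 against 21.9 and 211 CPM. Their part in the Pdgfd level was not tested. Pdgfc, with 144 and 129 CPM in SAT libraries against 148 and 103 CPM in VAT, overlapped between depots (−0.04 ± 0.26, adjusted p = 0.99).

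In epithelial nuclei Pdgfd went the other way. It had 23.1 and 44.2 CPM in the younger SAT libraries and 9.25 and 15.3 CPM in the older ones, on 41, 46, 10 and 25 UMIs, with both older libraries below both younger ones. In the fit, which used 5 libraries, it fell by 1.33 ± 0.36 on the log2 scale (SE, edgeR, adjusted p = 0.0272), the single call among 5 members tested, where 7.75% of 13227 genes were called. In the same epithelial sums, immune markers went from 358 and 507 CPM at 2 months to 152 and 103 CPM at 24 months, and FAP markers from 273 and 279 CPM to 80.5 and 225 CPM, and their part in the Pdgfd level was not tested. Without the second SAT library at 2 months the log2 fold change was −0.87 (adjusted p = 0.357), and the call was also lost under DESeq2 (adjusted p = 0.108), with only the 4 libraries compared (0.0592) and with nuclei under 5% mitochondrial UMIs (0.067). Pdgfa was at 12.4 and 17.3 CPM and then at 28.7 and 31.8 CPM without overlap, and its log2 fold change of 1.07 ± 0.34 missed the threshold (adjusted p = 0.0663). Pdgfc did not separate the ages (0.10 ± 0.19, adjusted p = 0.84). Epithelial nuclei of VAT were too few in the first library (5), and the second held epithelial markers at only 926 CPM, against 3786 to 4492 CPM in SAT, so no depot comparison was made.

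FAPs, which carry both receptors, showed no member past the threshold in edgeR. Pdgfra had a log2 fold change of 0.19 ± 0.61 between ages (adjusted p = 0.94) and −1.10 ± 0.61 between depots (adjusted p = 0.91), and Pdgfrb of −0.42 ± 0.46 (adjusted p = 0.81) and −0.31 ± 0.45 (adjusted p = 0.97). Standard errors of this size leave changes of about 1 in log2 undetectable at this depth. Pdgfd, lower in both older SAT libraries, had −0.90 ± 0.46 (adjusted p = 0.56), and in VAT against SAT it had 1.18 ± 0.46 (edgeR adjusted p = 0.86), with both VAT libraries above both SAT ones. Of the 4 members tested, 0 passed in either comparison, with 0 and 1 at an unadjusted p under 0.05 and 0 by DESeq2, where 0% (age, 795 genes at an unadjusted p under 0.05) and 0.0249% (depot) of 8045 genes were called. FAPs of the second VAT library held the FAP list at 4756 CPM, against 13806 to 28693 CPM in the others, and the part of the mesothelial markers named above in the depot values was not tested.

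In endothelial nuclei 0 of the 2 members tested passed in either comparison, with 1 (age) and 0 (depot) at an unadjusted p under 0.05, where edgeR called 0.0303% of 6600 genes for age and 0% for depot (428 genes at an unadjusted p under 0.05). Pdgfd, higher in both older SAT libraries, had a log2 fold change of 2.08 ± 0.70 (edgeR, adjusted p = 0.37), and between depots −0.66 ± 0.64 (adjusted p = 0.86). Pdgfb had 0.64 ± 0.71 for age (adjusted p = 0.77) and −1.51 ± 0.69 for depot (adjusted p = 0.75). DESeq2 called 0 as well. The younger endothelial sums came from 45 and 36 nuclei and held lymph node stroma markers at 13104 and 4842 CPM, against 5.77 and 136 CPM at 24 months, and adipocyte markers at 2586 and 2830 CPM, against 3211 and 8299 CPM. Mural markers summed to 162 and 142 CPM in them and to 738 and 1569 CPM at 24 months. The stroma list shares Ccl21a with the list of lymphatic endothelial markers. Lymphatic nuclei were 19 and 18 of the 45 and 36 younger nuclei, and 9 and 20 of 86 and 405 at 24 months. The part of this makeup or of other nuclei in the Pdgfd level was not tested. In the blood vascular subtype alone Pdgfd was at 350.1 CPM in the first younger library (26 nuclei) and at 827 and 441 CPM at 24 months, and at 146 CPM on 4 UMIs in the 18 nuclei of the second younger library.

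Immune nuclei had 0 of 6 members called in both comparisons, where 0% of 14164 genes were called for age and for depot (1457 and 1410 genes at an unadjusted p under 0.05) and DESeq2 called 0 members. For age, 2 members had an unadjusted p under 0.05, and for depot 0. Pdgfb went from 20.9 and 19.8 CPM at 2 months to 46.3 and 50.5 CPM at 24 months without overlap, with a log2 fold change of 1.36 ± 0.25 (edgeR, adjusted p = 0.34). Pdgfd, at 4.10 and 6.41 CPM and then 10.3 and 11.0 CPM, had 1.11 ± 0.45 (adjusted p = 0.48). The immune class changed in makeup, with 1402 and 2362 T nuclei at 2 months and 526 and 196 at 24 months, and T nuclei held 11.2 and 10.7 CPM of Pdgfb at 2 months and 60.8 and 33.8 CPM at 24 months, on 27, 36, 52 and 10 UMIs. In macrophages, 0 of 3 members tested passed, where 0.162% of 7408 genes were called for age and 0.0945% for depot, and Pdgfc had 0.81 ± 0.44 for age (edgeR adjusted p = 0.46). DESeq2 called 0 members there too, and 0 had an unadjusted p under 0.05.

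Lymph node stroma had 0 of 3 members called in either comparison by edgeR and by DESeq2, with 1 each at an unadjusted p under 0.05, where 0.0612% of 3266 genes were called for age and 3.55% for depot. Pdgfd had 98.7 and 22.4 CPM in the younger SAT libraries, 173 and 147 CPM at 24 months and 288 and 585 CPM in VAT, with no overlap between the groups. Its log2 fold changes were 1.45 ± 0.66 for age (adjusted p = 0.83) and 1.59 ± 0.63 for depot (adjusted p = 0.19). The VAT nuclei of this class, against whose name the data go, held its own marker list far below the 5538 to 9470 CPM of SAT, and the depot values rest on them.

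In the sums over all nuclei, edgeR called 0 of 6 members in either comparison, with 2 (age) and 1 (depot) at an unadjusted p under 0.05, where 0% (age, 1750 genes at an unadjusted p under 0.05) and 0.0138% (depot) of 21729 genes were called. In such sums, fewer nuclei of a type and less RNA per nucleus cannot be told apart. Pdgfd had 31.8 and 21.1 CPM in the younger SAT libraries, 75.2 and 138 CPM at 24 months and 113 and 386 CPM in VAT, and its log2 fold change with age was 2.26 ± 0.61 (adjusted p = 0.61). DESeq2 called it for age (2.28, adjusted p = 0.0374), beside 0.639% of 41598 genes. Pdgfb, at 19.8 and 21.2 CPM and then 38.0 and 53.0 CPM, had 1.38 ± 0.41 (adjusted p = 0.61), and Pdgfc had 1.01 ± 0.48 (adjusted p = 0.64). In VAT against SAT, Pdgfa was at 8.87 and 152 CPM against 19.9 and 23.1 CPM, on either side of the SAT libraries, and its log2 fold change of 1.75 ± 1.04 (adjusted p = 0.80) became −1.04 without the second VAT library. Pdgfb was the member with an unadjusted p under 0.05 for depot. With 9.05 and 20.1 CPM in VAT it lay below both SAT libraries of that age (−1.69 ± 0.41, edgeR adjusted p = 0.43). Endothelial nuclei made up 0.979% and 0.623% of nuclei in SAT at 2 months and more at 24 months (86 of 2490 and 405 of 4709).

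**Figure D4:**
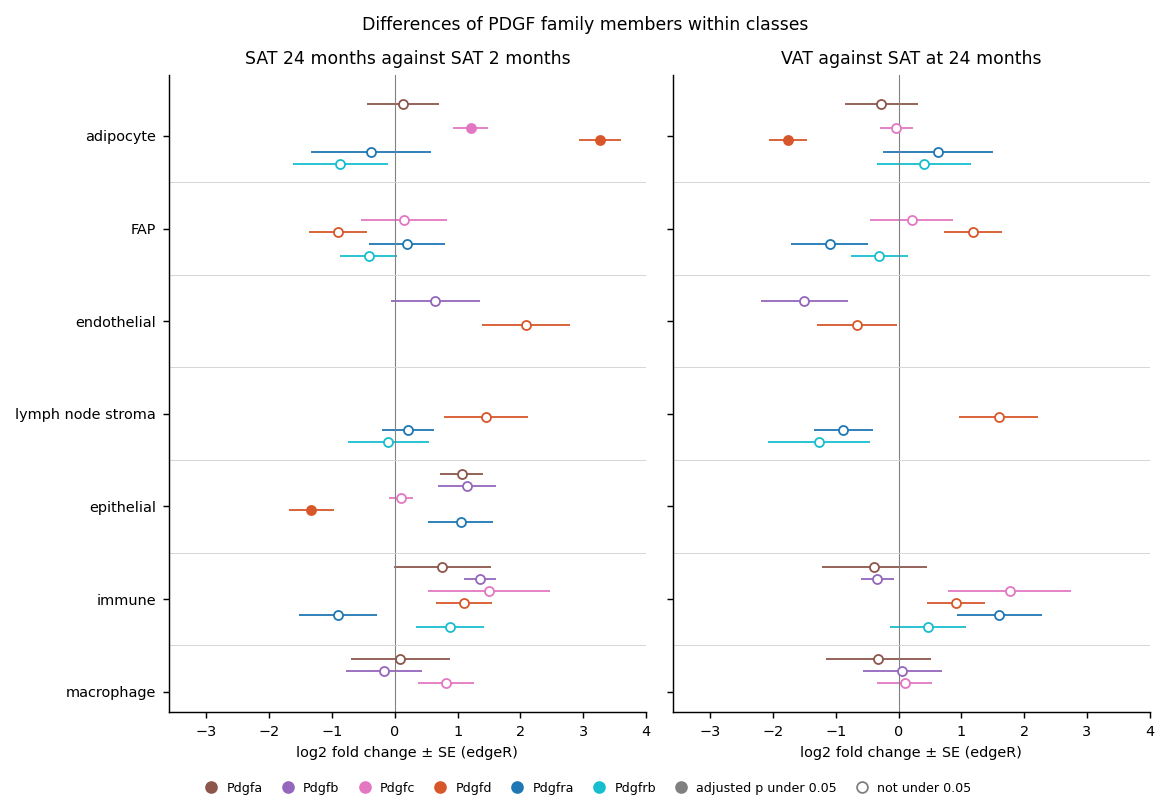
Log2 fold changes of the tested PDGF members with their standard errors, by class, for SAT at 24 against 2 months and for VAT against SAT at 24 months, with filled points for edgeR adjusted p under 0.05. The filled points are Pdgfd and Pdgfc in adipocytes (3.27 and 1.21) and Pdgfd in epithelial nuclei (−1.33) for age, and Pdgfd in adipocytes (−1.77) for depot.

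Whether the age difference in adipocytes itself differed from that of another class was tested in 1 model over both classes with the library as a block. For Pdgfd it exceeded that of FAPs by 4.30 ± 0.49 in log2 (SE, edgeR, adjusted p = 0.000119), where 0.827% of 11241 genes were called. It exceeded that of immune nuclei by 2.17 ± 0.51 (edgeR, adjusted p = 0.0326), where 2.94% of 15407 genes were called. Against epithelial nuclei the difference was 4.65 ± 0.45 for Pdgfd and 1.23 ± 0.30 for Pdgfc (edgeR, adjusted p = 3.96e-22 and 0.00157), where 9.41% of 15340 genes were called. That fit rests on 10 sums with 2 residual degrees of freedom and in effect a single spread shared by all genes, so its smallest p-values follow from that shared spread. Against endothelial nuclei the difference of 0.96 ± 0.74 for Pdgfd did not pass (adjusted p = 0.73), where 0.177% of 11268 genes were called. For Pdgfc the difference from FAPs was 1.01 ± 0.63 (adjusted p = 0.65). From immune and endothelial nuclei it was −0.05 ± 0.78 and −0.26 ± 1.23 (edgeR, adjusted p = 0.99 and 0.97).

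FAPs were split further by markers into Dpp4 progenitor-like nuclei (395) and Col15a1 preadipocyte-like nuclei (166), which left 921 without a subtype. Among the 921 were nuclei moved in from another class, which were not put to this split. Over the 4 libraries with at least 10 nuclei of both, Pdgfra averaged 1038 CPM in the preadipocyte-like and 644 CPM in the progenitor-like nuclei and was higher in the former in 4 of 4 libraries, by 0.71 ± 0.23 (SD) in log2(CPM + 1). Pdgfrb averaged 352 and 139 CPM and was higher in preadipocyte-like nuclei in 3 of 4 libraries. Pdgfd and Pdgfc had the opposite order. Pdgfd averaged 132 CPM in preadipocyte-like and 328 CPM in progenitor-like nuclei (lower in 4 of 4 libraries, by a mean of −1.41). Pdgfc averaged 14.2 and 71.3 CPM and Pdgfb 3.61 and 9.78 CPM in the same 4 libraries. Over all 6 libraries Pdgfc had 4 and 52 UMIs in these nuclei, Pdgfb 1 and 4, and Pdgfa 1 in each. With 4 pairs the exact two-sided permutation test cannot go below p = 0.125, which the Pdgfra, Pdgfb, Pdgfc and Pdgfd differences reached (adjusted p = 0.3 over 12 comparisons), so none could pass. Lymphatic endothelial nuclei had less Pdgfd than blood vascular nuclei in 5 of 5 libraries with at least 10 nuclei of both. The means were 174 and 365 CPM, with the smallest possible exact permutation p = 0.0625 (adjusted p = 0.3). The smallest sums held 18 lymphatic and 18 blood vascular nuclei, both in the second SAT library at 2 months.

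**Figure D5:**
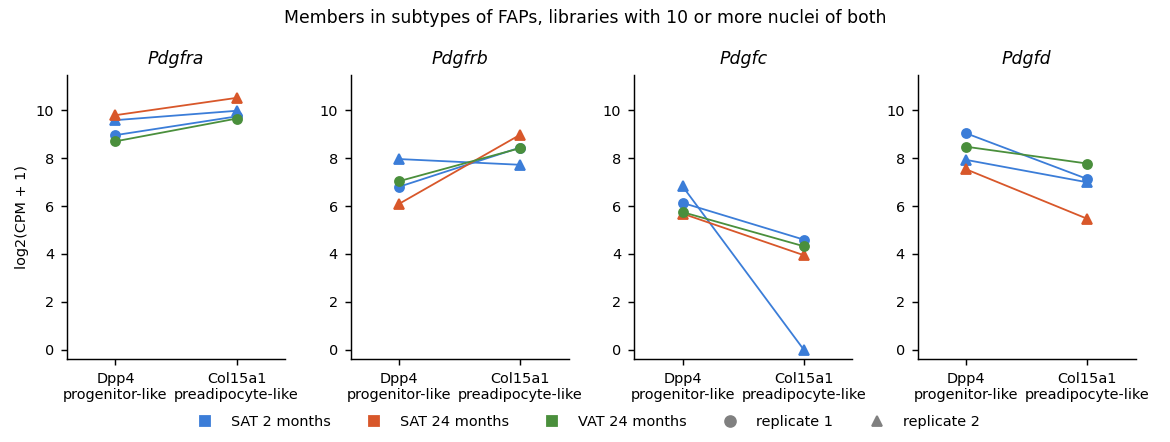
Level of Pdgfra, Pdgfrb, Pdgfc and Pdgfd in Dpp4 progenitor-like and Col15a1 preadipocyte-like FAPs as log2(CPM + 1), with a line joining the 2 values of each of 4 libraries. Lines rise for Pdgfra in 4 of 4 libraries and fall for Pdgfd in 4 of 4.

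Both receptors were also looked for in the same nucleus after thinning. Of 1482 FAPs, 532 had a Pdgfra UMI, 284 a Pdgfrb UMI and 125 (8.44%) both. In preadipocyte-like FAPs both were found in 15.7% and in progenitor-like FAPs in 2.79%. Of 129 mural nuclei, 58 had a Pdgfrb UMI and 2 a Pdgfra UMI. In lymph node stroma 94 of 354 nuclei had Pdgfra, 83 had Pdgfrb and 24 had both. As for ligands and receptors in the same nucleus, 47 FAPs had both Pdgfd and Pdgfrb, 14 had both Pdgfc and Pdgfra, and 3 had both Pdgfa and Pdgfra.

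A list of 52 genes of PDGF processing and signalling was read beside the members in adipocytes. With age, 3 of the 50 tested rose and 4 fell (edgeR), a share near the 14.3% called over all genes, with a median log2 fold change of −0.03 against 0.003 over all genes. The 3 that rose were Nrp1, a co-receptor of several growth factors, and the early response genes Fos and Jun. Nrp1 went from 197 and 230 CPM to 456 and 359 CPM (log2 fold change 1.09, adjusted p = 0.0237). Jun was at 21.3 and 11.3 CPM and then 30.4 and 71.5 CPM (1.73, adjusted p = 0.018), and Fos rose from 3 and 2 UMIs in all to 12.9 and 64.8 CPM (4.33, adjusted p = 0.0123). In all 3 the older libraries lay above the younger ones. Because the 3 were named for their calls in these same libraries, this adds no support. Among those that fell were Lrp1, an endocytic receptor that binds PDGF receptors (1159 and 1510 to 391 and 366 CPM, −1.67, adjusted p = 0.00143), Stat5a (−1.16, adjusted p = 0.0072) and the kinase Fyn (43.3 and 90.8 to 16.7 and 7.71 CPM, −2.40, adjusted p = 0.00774). The immune markers in adipocytes, given above, were also lower at 24 months, and their part in the levels of these genes was not tested. Between depots 0 of 50 passed in adipocytes by edgeR, as did 0 of 47 in FAPs in both comparisons, where 0.167% (adipocytes) and 0% and 0.0249% (FAPs, age and depot) of all genes were called, so that these counts are near the background. The epithelial age comparison had 3 higher and 4 lower of 51, where 7.75% of all genes were called, and lymph node stroma 1 lower of 29 between depots, where 3.55% were called.

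The genes whose levels followed each member most closely were ranked by Pearson's r of log2(CPM + 1) over 43 sums of class and library, among 12461 genes. The sums share libraries and classes, so r is a description. For Pdgfa the leading genes were Tmem98 (r = 0.74), Laptm4b (0.69) and Gm42826 (0.69), and for Pdgfb they were Cd93 (0.78), Ptprb (0.75), which is 1 of the endothelial markers, and Adgrl4 (0.74). For Pdgfc they were Baiap2 (0.83), Zfp395 (0.77) and 1110004F10Rik (0.75), and for Pdgfd Cald1 (0.82), Hoxb6 (0.78) and Zfpm2 (0.78). Pdgfra was followed by Ms4a4d (0.92), Dact1 (0.90) and Cilp (0.90), and Pdgfrb by Ddr2 (0.81), Aspn (0.77) and Dpysl3 (0.77). No member was among the 3 leading genes of another.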

How the data were processed

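Nuclei of 6 libraries (3 groups of 2) were profiled by the study with the GEXSCOPE single-nucleus kit, and the authors aligned reads to GRCm39 and counted UMIs with Celescope (version not given in the sources used here). The deposited matrices hold raw counts of UMIs per gene and nucleus, with no normalization. The lowest barcode total was 500 UMIs. The labels name replicates but not whether they are separate mice of 1 pair, so p-values measure the spread between these libraries, which may be technical. All libraries carry 1 date.

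Nuclei with more than 500 genes, more than 1000 UMIs and under 15% mitochondrial UMIs were kept. They were log-normalized and clustered without the members (1000 variable genes, 30 principal components, Harmony-type correction by library, 20 neighbours, Leiden at resolution 2.0, scanpy 1.11.5, leidenalg 0.10.2, Python 3.11.15), and clusters with fewer than 3 markers of a class, with another class's list within 0.25 in mean log2 fold, or with more markers of another class than of their own among their leading genes, stayed unnamed. When a class was clustered again, a subcluster that met these rules for another class took that class's name. One that met them for none and was closest to another class became unnamed. So did one with at least 2 such markers of another class and more of them than of its own. Some with 1 thus kept the name. The mural nuclei were endothelial subclusters of 79 and 50 nuclei that took the mural name. The naming rule was revised after the clusters were seen. Scrublet scores were computed, but its limit marked only 0.052% to 0.562% of nuclei, so no doublets were removed for the values given. UMIs were summed per library and class and tested with edgeR 4.0.16 (TMM, filterByExpr, robust quasi-likelihood, two-sided, R 4.3.3, limma 3.58.1) over all 6 libraries with group as the term, without a replicate block, with Benjamini-Hochberg adjustment over all genes tested and a threshold of 0.05. DESeq2 1.42.0 and other settings were alternatives. The SE is the log2 fold change divided by the root of F. The class-by-age test added the library as a block. Shares came from nuclei thinned to 1000 UMIs. Order and subtype tests were exact permutation tests on log2(CPM + 1). Limits for counts of 0 are 3 counts and cover counting error only. Counts were also simulated from mean adipocyte levels (12214 genes), with the same spread for every gene. On them the edgeR step recovered 19.8% of log2 changes of 1 and 80.4% of changes of 2, with 7 false calls. These figures hold for that setting only. GENCODE gene IDs matched all 6 members.

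The members, the list of 52 pathway genes and the marker lists were chosen with earlier results of these data known. Named were all members, pathway genes called in adipocytes or FAPs (at most 12 per comparison, by lowest adjusted p), and the 3 genes most like each member among those with at least 500 UMIs. The values of 1 pathway gene are not reported here. Both depots came from 2 mice of each age, so SAT and VAT libraries at 24 months may share mice, but the labels do not say which, and depot tests treat the libraries as independent. Deviations of same-numbered libraries did not show that the numbers pair them, which does not exclude shared mice.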

Additional observations from a re-analysis of the deposited data

Results flagged for a closer look

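The age difference (SAT at 24 against 2 months) was not the same in all classes for 2 ligands, by the test of the difference itself. For Pdgfd the log2 fold change with age in adipocytes was larger than in FAPs by 4.30, than in immune nuclei by 2.17 and than in epithelial nuclei by 4.65, with edgeR adjusted p = 0.000119, 0.0326 and 3.96e-22. For Pdgfc it was larger in adipocytes than in epithelial nuclei by 1.23 (edgeR adjusted p = 0.00157). With library size alone as scaling the Pdgfd differences were 4.13, 2.03 and 4.40 and that of Pdgfc 0.96, and all 4 were still past the threshold. The epithelial p-values come from a fit with 2 residual degrees of freedom and in effect 1 shared spread, where 9.41% of genes were called. Against endothelial nuclei the Pdgfd difference of 0.96 did not pass. Neither did those of Pdgfc from FAPs (1.01), immune (−0.05) and endothelial nuclei (−0.26), so for Pdgfc the result rests on the epithelial fit alone. Groups of 2 libraries are too small for a check of single outlying samples.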

How the results depend on the processing

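Adipocyte Pdgfd was past the threshold for age in all 13 alternatives (log2 fold change 3.06 to 3.53, adjusted p 8.74e-17 to 0.00145) and adipocyte Pdgfc in 11 of 13. With age, a single member (1), Pdgfd, was called in all nuclei under DESeq2 (0.639% of all genes called) and without a filter on low counts (2.29%), and in endothelial nuclei without that filter (0.795%), and 1, Pdgfb, in immune nuclei with only the 4 libraries compared (1.67%). In VAT against SAT, 1, Pdgfa, was called in all nuclei without the filter (2.49%). Of the 1 epithelial call for age 0 remained under DESeq2, with only the 4 libraries compared (adjusted p 0.108 and 0.0592) and with nuclei under 5% mitochondrial UMIs (0.067), and of the 1 adipocyte call for depot 0 with only the 4 libraries compared (0.08). The cause was not tested. When each library was left out in turn, with a lone sample assumed to vary like the other groups, members called for age ranged from 1 to 2 in adipocytes and 0 to 1 in epithelial nuclei, and for depot from 0 to 1 in all nuclei, adipocytes and FAPs and from 0 to 2 in lymph node stroma (Pdgfd and Pdgfrb). Those 2, and Pdgfa in all nuclei (2.62) and FAPs, were called without the first VAT library, where 7.93%, 3.97% and 6.13% of all genes were called in the 3 classes and only the second VAT library, which stood apart, was left.

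Log2 fold changes that turned in sign were all uncalled in the reported fit. The ranges over libraries left out were −1.04 to 2.62 for Pdgfa in all nuclei between depots, −0.41 to 0.17 for Pdgfc in adipocytes between depots, −0.017 to 0.18 for Pdgfc in epithelial nuclei, −0.58 to 0.65 for Pdgfra in FAPs and −0.050 to 2.39 for Pdgfb in endothelial nuclei with age, and −0.69 to 0.43 for Pdgfrb in FAPs between depots. Pdgfrb there was 0.21 without batch correction, and adipocyte Pdgfc between depots was 0.0021 at resolution 1.0. Unthinned shares were higher, for Pdgfd 2.28%, 19.0% and 9.15% and for Pdgfc 10.6%, 20.8% and 22.3% in adipocytes of the 3 groups, and 26.9% for Pdgfrb in FAPs.

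Over all genes, the adipocyte age comparison had 1799 calls, against 1176 under DESeq2 and 666 and 510 without the first and second SAT library at 2 months, and the epithelial one 1025, against 253 under DESeq2, 652 with the 5% mitochondrial limit, and 493 and 283 without those libraries. The 21 adipocyte calls for depot ranged from 11 to 215 over the alternatives and the 116 of lymph node stroma from 26 to 374. Where edgeR called 0 to 12 genes, the alternatives called up to 97 (age) and 593 (depot) in FAPs, 183 and 202 in endothelial, 495 and 526 in immune, 309 and 196 in macrophage and 953 and 1034 in all nuclei, and 31 for age in lymph node stroma. With the replicate block, adipocytes had 2 members called for age and 1 for depot, as without it, and no call of a member changed in any class. Same-numbered libraries deviated with correlations from −0.476 to 0.108, so the numbers were not shown to pair them, and the block with crossed numbers, chosen after seeing the data where the correlation was under −0.1, called 0 members in 5 comparisons. Removal of the highest 5% of doublet scores, also chosen after seeing the data, replaced the planned removal of the nuclei Scrublet called, which was not run. Groups of 2, and class sums down to 20 nuclei, limit what could be detected. Macrophages gave no values at resolution 1.0 or without batch correction, and lymph node stroma gave no depot value without batch correction, with the 5% mitochondrial limit or without the highest doublet scores.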
